A study of Mus musculus with 2 samples.

Results

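The 10 genes described here encode transcription factors and cofactors that mark endothelial cells and their shared precursor with blood, the haemangioblast. They are the ETS factors Erg, Fli1 and Ets1, the SOXF factors Sox7, Sox17 and Sox18, and the haemangioblast factors Tal1, Lyl1, Lmo2 and Gata2. They were taken as every probe set annotated to exactly 1 gene, that gene being on this list, which gave 18 probe sets of 34945 with a single gene, and 10 genes of 18194. Both samples are labelled as bEnd3, an endothelial line from mouse brain cortex microvessels of the BALB/c strain, transformed with polyoma middle T antigen. One culture had received retrovirus carrying an siRNA against Smad4 and the other a virus with a control siRNA, and both were selected with puromycin. Smad4 joins the Smads that TGF-β and BMP receptors activate and enters the nucleus with them, and the question is which transcripts differ when it is targeted. Each group had 1 Affymetrix array with RNA pooled from 2 infections, so there is no replicate and no test was made, and having only 2 arrays limits how precise any value can be.

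ETS factors bind DNA at a GGAA core and occupy the enhancers of most endothelial genes. Erg and Fli1 are close paralogues that hold mature endothelium in its differentiated state, and Ets1 is known from sprouting vessels. The SOXF proteins bind DNA through an HMG box and act in arterial and lymphatic specification. Tal1 and Lyl1 are related basic helix-loop-helix proteins that pair with E-proteins, Lmo2 is a LIM-only bridge that binds no DNA itself, and Gata2 binds the GATA motif. Together with Ldb1 the last group forms multiprotein complexes in blood stem cells and endothelium.

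The arrays went against their labels in several ways. The 3 Smad4 probe sets had quantile-normalized signals of 1165, 817 and 722 on the Smad4-siRNA-labelled array and of 916, 545 and 607 on the Control-siRNA array, so the targeted transcript was not lower. Their log2 ratios were 0.35, 0.58 and 0.25, and as deposited -0.07, 0.21 and -0.12, so the sign depended on the scaling, and the array is named by its label throughout. Xist, the X-silencing RNA of female cells, reached 4476 on the Smad4-siRNA-labelled array and 20.7 on the Control-siRNA array in its brightest probe set, while the Y-linked Eif2s3y had 0.349 on the Smad4-siRNA-labelled array and 324 on the control. All 12 endothelial markers looked up were at least 2-fold lower on the Smad4-siRNA-labelled array, 6 of them below the floor there, and their summed signal was 276 on that array and 20426 on the Control-siRNA array, with Ramp2 59.8-fold and Ptprb 38.3-fold lower. Of 10 measured fibroblast markers, 8 were at least 2-fold higher and 0 lower, with summed signals of 21648 on the Smad4-siRNA-labelled array and 1009 on the control over all 12 on the list. The largest bounds among them were at least 324-fold for Col1a2, 265-fold for Col3a1 and 155-fold for Fbln1, while Pdgfra had a log2 ratio of 2.86 and S100a4 of 0.09, or -0.31 as deposited. Of 5 measured pericyte and smooth muscle markers 4 were higher, with sums of 3017 on the Smad4-siRNA-labelled array and 103 on the control over the 10 listed. Acta2 had a log2 ratio of 5.61, and Pdgfrb, Tagln and Cspg4 had bounds of 5.41, 3.38 and 2.47. Des went the other way, with 13.7 on the Smad4-siRNA-labelled array and 36.2 on the control, a bound of -0.67. Cnn1, Myh11, Rgs5, Kcnj8 and Abcc9 were below the floor on both arrays. The floor is each array's median signal, 22.8, used in place of detection calls, and a gene or probe set counts as measured if it reached the floor on at least 1 array. Of the fibroblast markers 8, and of the pericyte and smooth muscle markers 3, reached it only on the Smad4-siRNA-labelled array and could only come out higher. Likewise the 6 endothelial markers below it there could only come out lower. Of all measured genes 15.8% were at least 2-fold lower and 16.0% higher. Whether both arrays hold RNA of the same line was not tested, and with 1 array a group a difference between lines and an effect of the siRNA cannot be told apart. Every ratio below is therefore a difference between these arrays. The part of the marker differences in it was not tested.

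Promoter windows of 300 bases, from 250 before to 50 after the transcription start, were at hand for 4 of the genes, Erg, Tal1, Lyl1 and Gata2. They are shown because 3 of these genes were below the floor on the Smad4-siRNA-labelled array while Gata2 was not. The sequences are from RefSeq, build GRCm38.p6, and for each gene the window with most motif matches is printed. Capitals mark the motifs that were found. The Erg window lies at chr16:95459299-95459598 on the minus strand, the Tal1 window at chr4:115056176-115056475, the Lyl1 window at chr8:84701207-84701506 and the Gata2 window at chr6:88198414-88198713, these 3 on the plus strand.
Erg: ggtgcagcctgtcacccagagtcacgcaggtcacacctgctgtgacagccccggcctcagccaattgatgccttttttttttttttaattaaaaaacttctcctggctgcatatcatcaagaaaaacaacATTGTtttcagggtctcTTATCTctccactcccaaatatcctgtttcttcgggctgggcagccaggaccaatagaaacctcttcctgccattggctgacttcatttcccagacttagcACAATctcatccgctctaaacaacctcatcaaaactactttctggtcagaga
Tal1: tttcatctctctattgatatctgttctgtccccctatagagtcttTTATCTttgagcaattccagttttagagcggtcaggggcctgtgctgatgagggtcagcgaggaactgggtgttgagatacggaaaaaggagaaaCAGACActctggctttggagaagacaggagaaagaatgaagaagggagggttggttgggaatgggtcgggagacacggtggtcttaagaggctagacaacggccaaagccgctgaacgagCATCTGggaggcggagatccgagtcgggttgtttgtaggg
Lyl1: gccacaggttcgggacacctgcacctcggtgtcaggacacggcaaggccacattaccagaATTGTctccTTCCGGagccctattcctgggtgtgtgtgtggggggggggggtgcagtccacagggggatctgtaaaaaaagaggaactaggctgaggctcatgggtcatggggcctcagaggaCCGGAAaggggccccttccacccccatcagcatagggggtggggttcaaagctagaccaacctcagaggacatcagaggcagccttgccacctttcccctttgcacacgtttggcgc
Gata2: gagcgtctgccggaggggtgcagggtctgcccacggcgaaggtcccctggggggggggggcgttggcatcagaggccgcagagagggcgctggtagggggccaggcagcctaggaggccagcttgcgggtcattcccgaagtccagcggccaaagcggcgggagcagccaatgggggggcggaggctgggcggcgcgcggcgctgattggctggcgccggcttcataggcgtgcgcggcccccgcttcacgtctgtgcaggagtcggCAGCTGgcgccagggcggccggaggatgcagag

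The printed windows held letters that factors on the list or Smads can bind, all of them common in promoters. On both strands, 12 motifs were searched. For ETS factors these were the core CCGGAA, its longer form CCGGAAGT and the Erg-type form ACAGGAAGT. For SOX factors they were the core ACAAT and the longer form ACAATGG, and for GATA factors the letters AGATAA. The E-boxes searched were CAGCTG, then CAGATG, and as a form bound by other factors CACGTG. The Smad motifs were the element CAGACA and the palindrome GTCTAGAC, and the AP-1 motif was TGACTCA. The core CCGGAA, which lies within CCGGAAGT, was added after the windows had been read, and ACAAT lies within ACAATGG. The Lyl1 window held CCGGAA at 2 positions, starting 181 bases and 67 bases before the transcription start, a motif found in 14.9% of 32851 windows. It also held ACAAT, found in 31.0% of windows. The printed Erg window held ACAAT at 2 positions and AGATAA at 1, and the other Erg windows, of which there were 2, held none of the motifs. AGATAA also occurred in the printed Tal1 window and was found in 11.2% of all windows. That window further held CAGATG (17.2% of windows) and the Smad letters CAGACA (21.0%), which occurred in the other Tal1 window as well. The Gata2 window printed held CAGCTG alone, found in 16.3% of windows, and the other Gata2 window held none. Where a gene had several windows, the printed one was picked for its matches. The shares are over single windows, so a picked window is not like them. A match describes letters and not a bound site.

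Of the 10 factors, 9 were at least 2-fold lower on the Smad4-siRNA-labelled array, 0 were at least 2-fold higher, and Gata2 lay between. On the same arrays 15.8% of the 11581 measured genes were at least 2-fold lower and 16.0% at least 2-fold higher. At 4-fold the counts were 7 of the 10 factors and 4.15% of all measured genes. On the Control-siRNA array all 10 reached the floor, and 8 of them did so only there, against 8.71% of measured genes that did so. Those 8 counted as measured only through the array on which they were high and could only come out lower, so the counts describe these arrays and support nothing further. For them the fold is a bound, the Control-siRNA signal over the floor, and the difference may be larger. Each gene is represented by 1 probe set, that with the highest mean log2 signal over both arrays, called the brightest below. The median log2 ratio or bound was -3.72 over the factors and -0.11 over all measured genes. The technical error of a single log2 ratio was taken as the pooled SD between probe sets of the same gene, 0.47 from 4546 genes, which covers neither cultures nor arrays. In bulk RNA such as this, fewer cells of a type and less RNA per cell cannot be told apart.

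**Figure D1:**
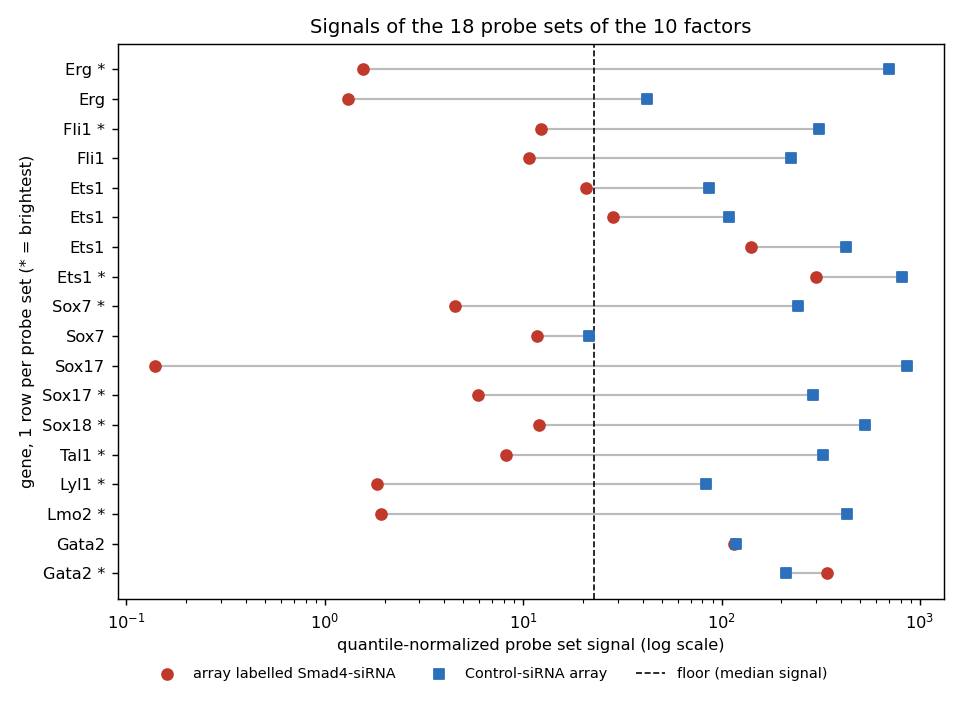
Quantile-normalized signal (log axis) of each of the 18 probe sets of the 10 factors, as circles for the Smad4-siRNA-labelled array and squares for the Control-siRNA array, with the floor of 22.8 as a dashed line and n = 1 array a group. In 12 probe sets the circle alone lies left of the floor, and only the Gata2 pairs and 3 of the 4 Ets1 pairs lie wholly right of it.

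Among the ETS factors, Erg and Fli1 were below the floor on the Smad4-siRNA-labelled array, whereas Ets1 was lower but measured on both arrays. Erg (probe set 1440244_at) had signals of 1.56 on the Smad4-siRNA-labelled array and 700.3 on the Control-siRNA array, at least 30.7-fold lower. Its second probe set, with 1.31 on the Smad4-siRNA-labelled array and 42.0 on the control, came close to the floor on the control side and gave a bound of only 1.84-fold. Erg is known as an ETS factor that mature endothelium keeps expressing, and of all measured genes 0.250% had a lower ratio or bound.

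Fli1 (probe set 1433512_at) had signals of 12.3 on the Smad4-siRNA-labelled array and 309 on the Control-siRNA array, at least 13.6-fold lower, and its second probe set had 10.7 on the Smad4-siRNA-labelled array and 223 on the control, at least 9.80-fold lower. Both probe sets thus crossed the floor between the arrays. In its brightest probe set, 1452163_at, Ets1 had 299.7 on the Smad4-siRNA-labelled array and 809 on the control, which is 2.70-fold lower, a log2 ratio of -1.43. Its other probe sets had signals of 141, 28.5 and 20.7 on the Smad4-siRNA-labelled array, of which the last is below the floor, and of 426, 109 and 86.0 on the control. The 3 Ets1 probe sets measured on both arrays had a mean log2 ratio of -1.66 ± 0.26 (SD between probe sets). Ets1, a factor of many cell types besides endothelium, was the only one of the 9 lower factors that stayed above the floor on both arrays.

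All 3 SOXF genes were below the floor on the Smad4-siRNA-labelled array. Sox18 (1449135_at), whose mutation in mice causes vascular and lymphatic defects, had 12.1 on it against 529 on the Control-siRNA array, at least 23.2-fold lower. Sox17 (1421657_a_at), an arterial factor that also acts in endoderm, had 5.92 on the Smad4-siRNA-labelled array and 290.3 on the control in its brightest probe set, at least 12.7-fold lower, and 0.140 on the Smad4-siRNA-labelled array and 859 on the control in the other, at least 37.7-fold lower. The second of these carries a suffix that marks probes shared with other sequences. Sox7 (1416564_at), the remaining member of the subgroup, had 4.54 on the Smad4-siRNA-labelled array and 244 on the control, at least 10.7-fold lower. Its other probe set, with 11.8 on the Smad4-siRNA-labelled array and 21.3 on the control, was below the floor on both arrays and gives no fold. When the floor was the 75th percentile the Sox7 bound shrank to a log2 value of -0.94, under 2-fold.

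The haemangioblast factors split, with Tal1, Lmo2 and Lyl1 below the floor on the Smad4-siRNA-labelled array and Gata2 well above it. Tal1 (1449389_at), needed for the first blood cells of the embryo and for vessel remodelling, had signals of 8.16 on that array and 324 on the Control-siRNA array, at least 14.2-fold lower. Lmo2 (1454086_a_at), the bridge of the Tal1 complex, had 1.91 on the Smad4-siRNA-labelled array and 427 on the control, at least 18.7-fold lower. Lyl1 (1419120_at), the paralogue of Tal1, had 1.83 on the Smad4-siRNA-labelled array and 83.7 on the control, at least 3.67-fold lower, the smallest bound among the 8 factors with a bound. When the floor was the 75th percentile Lyl1 was not measured. Each of these 3 genes had 1 probe set, so no second one could be compared.

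Gata2 (probe set 1450333_a_at) had signals of 340.1 on the Smad4-siRNA-labelled array and 212 on the Control-siRNA array in its brightest probe set, 1.60-fold higher and a log2 ratio of 0.68. Its other probe set had 115 on the Smad4-siRNA-labelled array and 118 on the control, a log2 ratio of -0.03. The probe sets therefore differed in sign, and their mean log2 ratio of 0.32 had an SD of 0.50 between them. Gata2 is expressed in blood progenitors, endothelium and several other tissues, and 78.0% of measured genes had a lower ratio. As deposited, its probe sets had log2 ratios of 0.40 and -0.10.

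**Figure D2:**
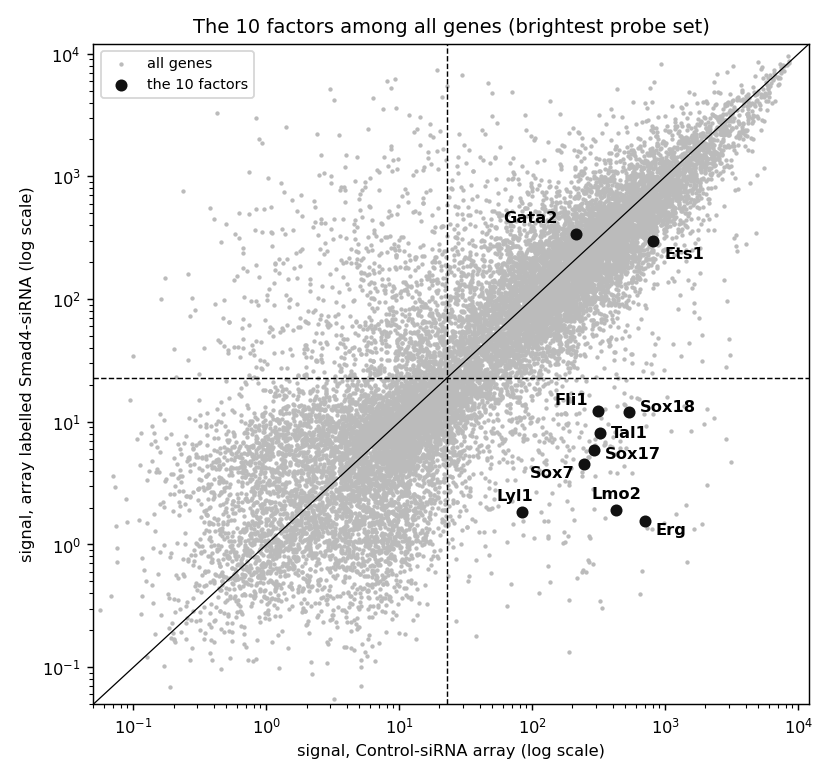
Signal on the Smad4-siRNA-labelled array (vertical, log axis) against signal on the Control-siRNA array (horizontal, log axis) for the brightest probe set of each of 18194 genes (grey) and the 10 factors (black), with the floor of 22.8 as dashed lines and equality as a solid line. Of the factors, 8 lie in the lower right field, with Erg and Lmo2 at signals of 1.56 and 1.91 on the Smad4-siRNA-labelled array, while Ets1 and Gata2 lie above the floor on both axes.

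The place of each factor in the whole array showed the same split. On the Smad4-siRNA-labelled array, Erg exceeded 8.83% of all genes, Lmo2 10.3%, Sox7 17.9%, Sox17 21.4%, Tal1 26.7%, Sox18 33.6% and Fli1 33.9%, with Lyl1 between Erg and Lmo2, against 78.7% for Ets1 and 80.7% for Gata2. On the Control-siRNA array the lowest were Lyl1 with 57.3% and Gata2 with 72.3%, and the highest Erg with 90.7% and Ets1 with 92.3%. Probe sets of different genes respond differently, and signals below the floor have no firm order, so these percentiles place signals and not transcript amounts.

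Genes beside the factors on the chromosomes included lower and higher ones, and most lay within 2-fold, as did most measured genes. Up to 3 measured protein-coding neighbours on each side gave 51 genes, of which 7 (13.7%) were at least 2-fold lower, 5 (9.80%) higher and 39 (76.5%) between, beside 15.8%, 16.0% and 68.3% of all measured genes. Their median log2 ratio was -0.32. Fli1 and Ets1 are themselves neighbours on chromosome 9 and were both lower, and beside them St3gal4 and Tirap had log2 ratios of -1.07 and -2.09, while Nfrkb on the other side had 0.01. Erg lies next to its relative Ets2 on chromosome 16, whose log2 ratio was -1.02, and next to Kcnj6 with 0.53. Sox18 had neighbours Prpf6 and Tcea2 at -0.37 and -0.48. Tal1 lay between Stil at -0.14 and Pdzk1ip1, which was at least 2.45-fold higher. Neighbours were looked up after the values of the factors had been seen, by the gene order of the RefSeq table for GRCm38.p6.

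**Figure D3:**
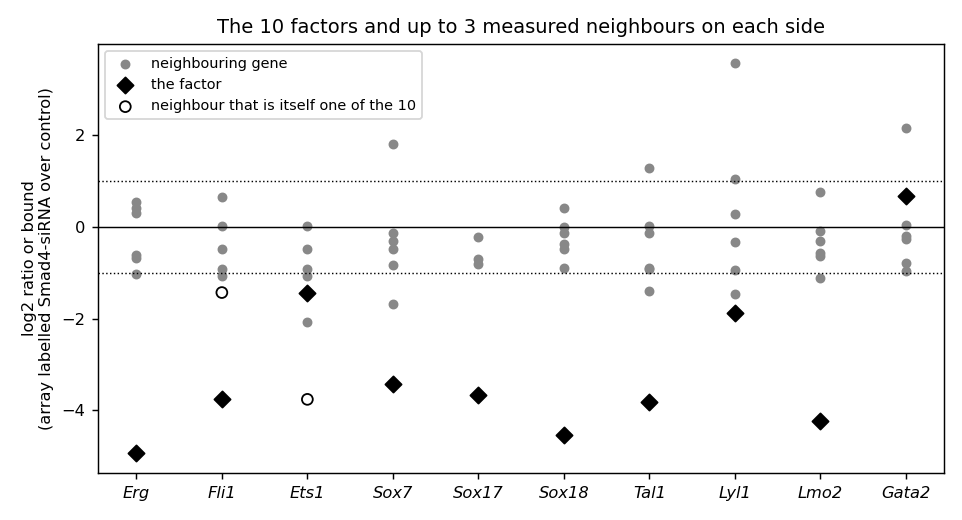
Log2 ratio or bound of each of the 10 factors (diamonds) and of up to 3 measured protein-coding genes on each side of it (grey circles, or open circles where the neighbour is another of the 10), Smad4-siRNA-labelled array over Control-siRNA array, with dotted lines at 2-fold. Of the 51 neighbours 39 (76.5%) lie between the dotted lines, as do 68.3% of all measured genes, and Erg, Sox18 and Lmo2 lie at -4.94, -4.54 and -4.23.

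Of 13 measured ETS genes outside the 3 described, 2 were at least 2-fold lower, 1 was higher and 10 lay between, all measured on both arrays, with a median log2 ratio of -0.24. The share that was lower, 15.4%, was close to the 15.8% of all measured genes. Elk3, a ternary complex factor known in endothelium, had signals of 788 on the Smad4-siRNA-labelled array and 1894 on the Control-siRNA array, 2.40-fold lower, and Ets2 was 2.03-fold lower with 405 on the Smad4-siRNA-labelled array and 820.0 on the control. Etv5 was 2.15-fold higher in its brightest probe set, a log2 ratio of 1.10, or 0.97 as deposited. Its other probe sets had 0.19 and 1.67. The brightest Etv6 probe set had a log2 ratio of 0.40, and its other probe set had -0.68. Etv2, the ETS factor that starts the haemangioblast programme in the embryo, and Spi1, the ETS factor of myeloid cells, were below the floor on both arrays.

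Of 8 measured SOX genes of other subgroups, 2 (25%) were lower, 2 (25%) higher and 4 between, with a median of -0.28. Among all measured genes 15.8% were lower and 16.0% higher. Sox13 was below the floor on the Smad4-siRNA-labelled array, with 10.6 there and 142 on the Control-siRNA array, at least 6.21-fold lower. Sox4, a SOXC factor, was 2.25-fold lower, with 1766 on the Smad4-siRNA-labelled array and 3970.2 on the control, and all 6 of its measured probe sets were below 0. Sox9, the SOX factor of cartilage, showed the opposite pattern with 137 on the Smad4-siRNA-labelled array and 6.11 on the control, a bound of 2.58 on the log2 scale, and Sox12 was higher too, with 139 on the Smad4-siRNA-labelled array and 34.8 on the control. Sox21 had a log2 ratio of -0.85, and Sox10 and Sox3 were below the floor on the Smad4-siRNA-labelled array with bounds under 2-fold.

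The protein partners of the Tal1 and Lmo2 complex included genes within 2-fold, genes that were lower and, as given further below, genes that were higher. Ldb1, the dimerizing scaffold of the complex, had 230.0 on the Smad4-siRNA-labelled array and 247 on the Control-siRNA array, which is a log2 ratio of -0.10. The E-protein genes Tcf3 and Tcf12, whose products pair with Tal1 and Lyl1, had log2 ratios of 0.42 and -0.09, and Tcf4 of -0.88, with all 5 of its measured probe sets below 0. Tcf12 had both signs among its probe sets. In contrast Ldb2, the second scaffold gene, was at least 4.24-fold lower, and the corepressor Cbfa2t3 at least 2.28-fold lower, each with 3 of 3 measured probe sets below 0.

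Of all 18 measured partners and GATA relatives, 5 (27.8%) were lower, 5 (27.8%) higher and 8 between. Among all measured genes 15.8% were lower and 16.0% higher. The median of the 18 was 0.14. Lmo1, a relative of Lmo2, had 9.29 on the Smad4-siRNA-labelled array and 711 on the Control-siRNA array, at least 31.2-fold lower. Lmo4 went the other way, with 950.3 on the Smad4-siRNA-labelled array and 269 on the control, 3.54-fold higher. The homeobox gene Hhex, an early marker of blood and endothelial precursors, was at least 10.6-fold lower, and the MADS-box gene Mef2c was 2.94-fold lower with all 5 of its probe sets below 0. Among those higher were Gata6 (at least 8.07-fold), the GATA cofactor Zfpm2 (8.95-fold) and Ssbp2 (25.4-fold, on a Control-siRNA signal of 22.9 at the floor), whose product stabilizes Ldb1 complexes. Runx1, a factor of blood stem cells, was 4.74-fold higher, with 5 of its 6 measured probe sets above 0 and the other at -0.00464. Gata1, the erythroid relative of Gata2, was below the floor on both arrays.

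Known endothelial targets of these factors were lower in most cases. Of 29 measured, 25 (86.2%) were at least 2-fold lower, 1 higher and 3 between, with a median of -3.88. Among all measured genes 15.8% were lower. Of the 29, 16 were measured through the Control-siRNA array alone and could only come out lower. Nos3, the endothelial nitric oxide synthase, was 102-fold lower and the peptide hormone gene Apln 36.9-fold lower. The VE-cadherin gene Cdh5, a target of Erg, had a log2 ratio of -5.09. The largest bounds were at least 136-fold for Emcn, 90.2-fold for Esam and 82.8-fold for Pecam1. Angpt2, with 693 on the Smad4-siRNA-labelled array and 38.4 on the Control-siRNA array, was the 1 target that was higher, with a log2 ratio of 4.17. Eng, Efnb2 and Thbd lay between with log2 ratios of -0.56, 0.93 and -0.78 in their brightest probe sets, but the other Eng probe set, with 82.6 on the Smad4-siRNA-labelled array and 308 on the control, had -1.90. Flt1 counted as lower by its brightest probe set, at -1.22, but its others had -0.54, -0.02 and 0.14. By the median over probe sets the count of lower targets was again 25, beside 15.2% of all measured genes. Many of these genes are also general endothelial markers, and this list was drawn up with earlier results of these arrays known, so its direction is no independent evidence. All endothelial markers looked up above except Ramp2 and Ptprb are in it too, so the counts of both lists are not separate observations. Hhex is also on the list of partners.

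**Figure D4:**
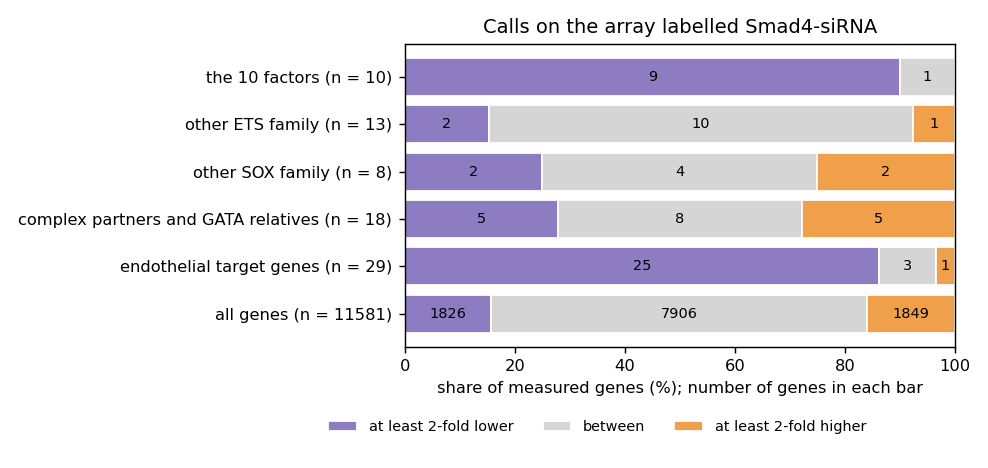
Share of measured genes (horizontal axis, percent, with the number of genes in each bar) at least 2-fold lower, between, or at least 2-fold higher on the Smad4-siRNA-labelled array, for the 10 factors, their relatives, partners and targets, and all 11581 measured genes. The factors, with 9 lower, and the targets, with 25 of 29, have the long left bars, whereas the other ETS genes have 10 of 13 between.

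Blood cell markers, looked up because Tal1, Lyl1, Lmo2, Fli1 and Gata2 are also expressed in blood, gave little signal, with sums of 183 on the Smad4-siRNA-labelled array and 1002 on the control. Of 11 that had their own probe set, 7 were below the floor on both arrays, among them Ptprc with 1.64 on the Smad4-siRNA-labelled array and 2.07 on the Control-siRNA array, and Itgam with 4.73 on the Smad4-siRNA-labelled array and 5.02 on the control. Itga2b had 66.5 on the Smad4-siRNA-labelled array and 74.3 on the control, and Csf1r 23.2 on the Smad4-siRNA-labelled array and 28.2 on the control. Kit had 9.27 on the Smad4-siRNA-labelled array and 23.0 on the control. Cd68, a lysosomal gene of macrophages and of other cells, was 23.3-fold lower with 35.2 on the Smad4-siRNA-labelled array and 820.3 on the control.

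The count of lower factors was the same under each scaling. As deposited, centred on the median or with a lowess trend removed, 9 of the 10 were again at least 2-fold lower and 0 higher, although the median of all measured genes shifted to -0.23, 0.01 and 0.00443. In these settings 19.8%, 13.9% and 13.3% of all measured genes were lower, and 15.2%, 19.0% and 17.7% higher. The size of the differences was less firm, since 8 of the 10 are bounds. Over the settings the log2 value of Sox17 ran between -7.23 and -1.19, the widest range of the 10. The -7.23 came from the pseudocount setting without a floor, in which its other probe set, 1429177_x_at, was taken as the brightest. The log2 value of Erg ran between -6.97 and -2.46, that of Lmo2 between -6.25 and -1.75, and that of Sox7 between -5.44 and -0.94, while Ets1 stayed between -1.78 and -1.33 and Gata2 between 0.32 and 0.78.

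**Figure D5:**
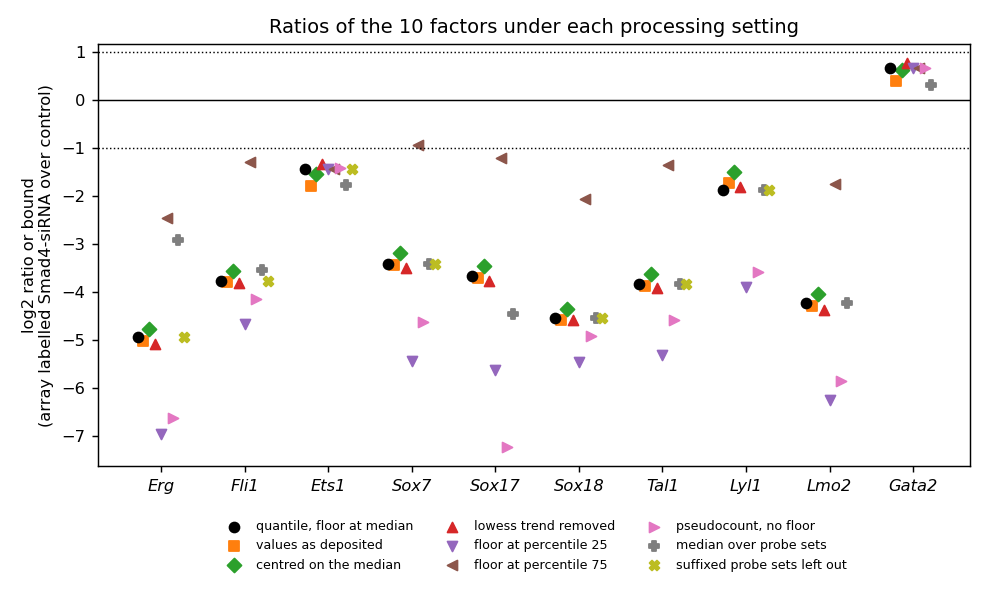
Log2 ratio or bound of each of the 10 factors, Smad4-siRNA-labelled array over Control-siRNA array, under each processing setting (1 symbol a setting, black circles for quantile normalization with the floor at the median), with dotted lines at 2-fold. Ets1 and Gata2, measured on both arrays, hold their places, and the values of the other 8 move with the floor, as Erg does between -6.97 and -2.46. Those of Erg and Sox17 also move with the probe sets used, to -2.91 and -4.45 by the median over probe sets.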

How the data were processed

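RNA of bEnd3 cells that carried a Smad4 siRNA or a control one was measured on Affymetrix mouse arrays, 1 per group, per the labels. The authors deposited linear signal intensity for each probe set, and their processing notes name MAS5. No source used here gives the MAS5 version, a scaling target or detection calls. Control probe sets (64 of 45101) were left out. Gene names came from the supplied platform annotation, updated by Entrez identifier through RefSeq (GRCm38.p6), which held 18032 of the 18194 genes. The 2% trimmed means of the arrays, 114 and 138, differed by -17.2%, above the 5% set for use as deposited, so log2 signals were quantile normalized (Python 3.11.15, numpy 2.4.6, pandas 2.3.3). A value below the floor was raised to it to give a bound, and no fold is given where both arrays were below. Ratios are the Smad4-siRNA-labelled array over the Control-siRNA array. The factors named are all 10 listed genes. From each list the 3 genes farthest from 0 measured on both arrays, the 3 largest bounds and known partners or paralogues were named. The others named (Lmo4, Cbfa2t3, Mef2c, Angpt2, Eng, Efnb2, Thbd, Flt1, Sox3, Des, Cnn1, Myh11, Rgs5, Kcnj8, Abcc9, Ptprc, Itgam, Xist, Eif2s3y and the neighbours) were chosen after their values were seen. The factors and lists were chosen with earlier results of these data known. Motifs were matched as exact letters. Arrays were also simulated from the Control-siRNA array, with 18194 genes and noise of SD 0.3 (log2). On them the calls recovered 98% of 50 genes changed 2.83-fold and 100% of genes with larger changes. That noise is smaller than the pooled SD of 0.47 between probe sets of the same gene. The changed genes were drawn only from those with a Control-siRNA signal far above that array's median, and no weaker gene was changed. These shares therefore say nothing about factors near the floor. They do not cover Lyl1, Gata2, Sox7 and Sox17 either, whose brightest probe sets were too weak on the Control-siRNA array to be drawn.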

Additional observations from a re-analysis of the deposited data

How the results depend on the processing

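The count of factors at least 2-fold lower was 9 of 10 with the values as deposited, centred, with a lowess trend removed, with a floor at the 25th percentile, with a pseudocount of 5.60 and no floor, and by the median over probe sets. It was 8 at a 3-fold threshold, which Ets1 did not reach, 7 of 9 when the floor was the 75th percentile, and 7 of 7 without suffixed probe sets, where Sox17, Lmo2 and Gata2 had none left. In the same order of settings, 19.8%, 13.9%, 13.3%, 17.4%, 13.9%, 15.2%, 6.82%, 11.6% and 15.8% of all measured genes were lower. None of the 10 was 2-fold higher in any of these 9 alternatives. Among all measured genes the share that was higher ran between 9.25% (at 3-fold) and 19.0% (centred). The median log2 ratio of the factors was -5.38 with the floor at the 25th percentile and -4.60 with the pseudocount. With the floor at the 75th percentile it was -1.35, over the 9 factors still measured without Lyl1. A bound is by its construction set by the floor, and the pseudocount setting has neither. Of the other ETS genes, 1 was lower with a lowess trend removed, 4 with the floor at the 25th percentile and 0 at 3-fold, and 0 were higher as deposited, at 3-fold and with the floor at the 75th percentile. Of the other SOX genes, 1 was lower with the floor at the 75th percentile, without suffixed probe sets and at 3-fold, and 0 were higher with the floor at the 75th percentile. Of the partners, 1 was lower with the floor at the 75th percentile and 3 at 3-fold. Of the targets, 2 were higher with a lowess trend removed. The number of genes measured in a list also depends on the floor. The causes of the changes under the lowess trend and the values as deposited were not tested. No paired analysis was possible because each group had 1 array, and no replicate could be left out. Signals under the floor of 22.8 limit the folds of 8 factors to bounds.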
